A study of Mus musculus with 3 samples.

Results

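The genes described here are 7 regulators of the neural crest and melanocyte lineage, each with a row of its own among the 57180 genes of the deposited mouse expression table. They were chosen by gene symbol alone: the transcription factors Sox10 and Pax3, the receptors Kit, Ednrb, Erbb3 and Mc1r, and the ion channel Trpm1. Values come from 3 libraries of 1 group, wild-type vestibular cells (from the inner ear's organ of balance) picked for looking like black balls. The labels name no treatment and no mouse age. They enter the cell type as macrophages, while the study's title speaks of melanocytes. Per the labels' protocols, 18 such cells were taken from 9 mice, 3 mice to a group, and amplified with the SMART-Seq HT kit, which copies polyadenylated RNA from oligo(dT) primers. The labels do not say how many cells went into each library. Fewer cells of a type and less RNA per cell therefore cannot be told apart, and p-values measure only how far the 3 libraries spread, a spread that may be technical.

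Melanocytes of skin, hair and inner ear descend from the neural crest, a migratory embryonic cell population that also gives rise to Schwann cells and other peripheral glia. Sox10 and Pax3 together switch on Mitf, the factor that commits a crest cell to pigment production, and signals through the receptors Kit and Ednrb keep the migrating precursors alive and moving. In mice, mutations of Sox10, Pax3, Kit or Ednrb can cause white coat patches, and hearing can be lost where melanocytes are missing from the inner ear. Mc1r acts later, in the mature pigment cell, where it sets the type of melanin made, and Trpm1 is a channel gene switched on by Mitf.

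The libraries held 18460546, 15086854 and 14095521 counts in replicates 1, 2 and 3, of which the 7 regulators together took 150.7, 169.8 and 186.6 CPM, that is, counts scaled to the same library total. Marker genes of several cell types were present beside them. All 14 macrophage markers on a fixed list passed the test described next, as did all 9 markers of supporting and dark cell epithelium, 7 of 14 markers of Schwann cells and glia and 7 of 10 pigment genes. The same test passed 37.6% of all genes tested and 50.5% of the protein-coding ones, so the glial share lies near that background. The pigment genes that did not pass were Oca2, Gpr143 and Mitf. The label macrophage thus had its defining transcripts, and the pigment cell named in the title had most of those listed. The pigment genes summed to 548.6, 669.5 and 670.2 TPM in replicates 1, 2 and 3, led by the pigment enzyme Dct at 250 ± 19.6 TPM (SD, n = 3 as for every value below). TPM is a count divided by gene length and then scaled to the same total in each library, and it is the scale used here to set one gene against another. The fibroblast and pericyte markers summed to 10670, 9806 and 4972 TPM in replicates 1, 2 and 3, led by Coch at 8005 ± 2950 TPM. Which cells gave the transcripts of any 1 regulator was not tested.

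Sox10, Ednrb and Erbb3 were the regulators whose transcripts stood above 1 TPM, while Kit, Trpm1 and Pax3 were counted in every library without passing the test and Mc1r was barely counted at all. The test was limma's moderated test of the mean log2(TPM + 1) over 3 libraries against the value at 1 TPM, one-sided, with Benjamini-Hochberg adjustment over 27265 genes. It called 3 of the 7 regulators, beside 37.6% of all genes tested and 50.5% of the 16219 protein-coding genes tested, so their share lies near the background. The background was close to this under TMM factors (37.8%) and median-ratio size factors (37.8%), which also called 3 of the 7, and at 33.1% with a pseudocount of 5. An unadjusted p under 0.05 (limma) was reached by 4 of the 7, beside 11428 of all 27265 genes tested. Their median level was 1.88 on the log2(TPM + 1) scale, against 1.49 over all genes tested and 2.32 over the protein-coding ones.

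**Figure D1:**
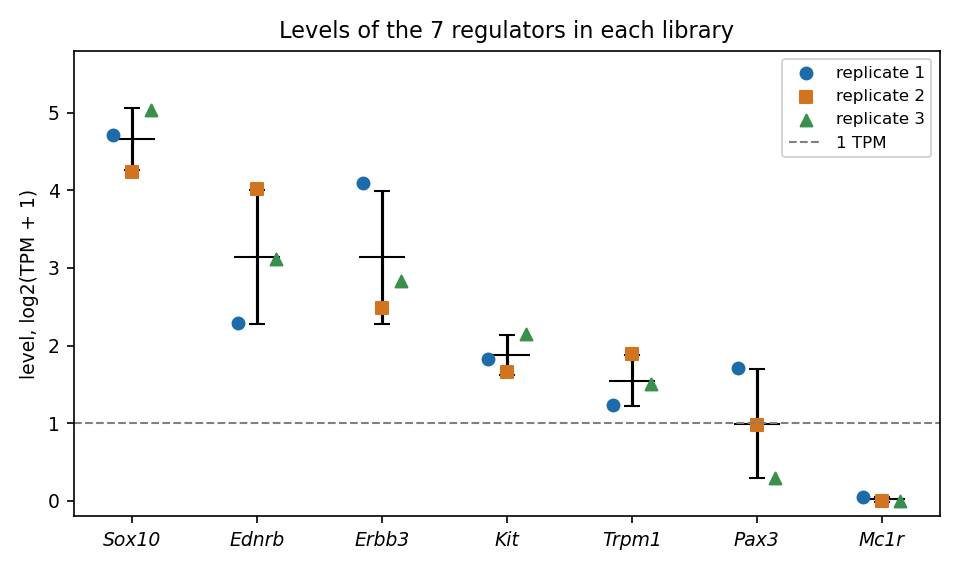
Level of each regulator on a log2(TPM + 1) axis in replicates 1, 2 and 3 (circles, squares and triangles), ordered by mean level. Horizontal bars are means, vertical bars ± 1 SD over the 3 libraries, and the dashed line is 1 TPM. Sox10 sits above all the others in every library, between 17.9 and 31.9 TPM, and Mc1r sits at the bottom.

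Sox10 (ENSMUSG00000033006, GRCm39 chromosome 15, 79039108 to 79049440), a high-mobility-group transcription factor that the neural crest, melanocytes and Schwann cells all use, was the most abundant of the 7. It had 1178, 761 and 1329 counts and stood at 25.2, 17.9 and 31.9 TPM in replicates 1, 2 and 3. Replicate 3 was highest and replicate 2 lowest, and the mean of 25 ± 7.01 TPM was above that of 81.7% of the protein-coding genes tested. Its call had an adjusted p of 9.4e-05 (limma) and was kept in all 13 alternative analyses. The neighbouring genes had counts of their own: Polr2f, a subunit of RNA polymerases that ends 3134 bases from Sox10, had 1762, 1305 and 2351 counts in replicates 1, 2 and 3, high and low in the same libraries as Sox10. The long noncoding Gm10863, 800 bases away on the other side, had 54, 78 and 34 counts. No annotated gene overlapped the span of Sox10.

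Its closest relatives, the other SoxE factors, were also present. Sox9, which epithelia and cartilage use as well as the crest, averaged 88.5 ± 10.2 TPM, and Sox8 averaged 9.92 ± 2.82 TPM. Per library the ratio of Sox10 to Sox9 was 0.26, 0.232 and 0.348, and the ratio of Sox10 to Sox8 was 2.40, 2.61 and 2.58. Sox10 was therefore below Sox9 and above Sox8 in 3 of 3 libraries, also when transcript lengths replaced the lengths behind the deposited values.

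Pax3 (ENSMUSG00000004872, chromosome 1, 78077904 to 78173771), the paired-box partner of Sox10 in switching on Mitf, was far lower and uneven. It had 145, 56 and 13 counts and stood at 2.27, 0.961 and 0.228 TPM in replicates 1, 2 and 3. The libraries did not overlap within counting error: the exact Poisson 95% intervals were 6.63 to 9.24 CPM in replicate 1, 2.80 to 4.82 CPM in replicate 2 and 0.491 to 1.58 CPM in replicate 3. These intervals cover counting error only, since no molecular identifier separates PCR copies from original molecules. Counts differed between libraries by more than counting error over the table as a whole, as given below. Replicate 1 held 9.95 times the Pax3 level of replicate 3 on the TPM scale, the widest range among the 6 regulators counted in every library. Pax3 did not pass limma's test (mean 1.15 ± 1.03 TPM, adjusted p = 0.845) and did not pass in any of the 13 alternatives. The ratio of Sox10 to Pax3 in TPM was 11.1, 18.6 and 140.0 in replicates 1, 2 and 3.

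Mitf, which both factors act on, ran in the same order over the libraries as Pax3. It had 227, 56 and 33 counts and was at 3.01, 0.817 and 0.492 TPM in replicates 1 to 3, and did not pass limma's test (adjusted p = 0.661). Sox10 exceeded Mitf 8.36, 21.9 and 64.9 times in TPM in these libraries. Of the 18 other transcription factors of the crest and pigment lineage on a fixed list, 4 passed: Sox9, Sox8, Twist1, a basic helix-loop-helix factor of crest and mesenchyme (26.8 ± 10.6 TPM), and Zic1, a zinc-finger factor (9.05 ± 4.38 TPM). Several had no count in 1 or more libraries. Snai2, a zinc-finger factor of migrating crest cells, was at 12.7, 6.66 and 0 TPM in replicates 1 to 3, and the early crest factors Foxd3, Tfap2a, Tfap2b and Pax7 each averaged under 1 TPM. Ets1, Lef1, Zeb2, Sox5, Msx1 and Sox6 averaged between 1.11 and 2.96 TPM and did not pass. The median of the list, 1.14 on the log2(TPM + 1) scale, was below that of all genes tested, 1.49.

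Ednrb (ENSMUSG00000022122, chromosome 14, 104052061 to 104081838), the G-protein-coupled endothelin receptor that melanocyte precursors need, followed Sox10 in level. It had 269, 960 and 476 counts and stood at 3.88, 15.2 and 7.70 TPM in replicates 1, 2 and 3. Replicate 2 was 3.92 times replicate 1, and the exact Poisson intervals of the 3 libraries did not overlap. The mean of 8.93 ± 5.76 TPM passed limma's test (adjusted p = 0.00614), and the call ended without replicate 2 (limma, adjusted p = 0.0789, where 28.1% of all genes passed) and without replicate 3 (adjusted p = 0.0944, where 30.4% passed). The related receptor Ednra, which vascular muscle uses, stood at 1.65, 1.09 and 1.49 TPM, and Ednrb exceeded it 2.35, 13.9 and 5.16 times in replicates 1, 2 and 3.

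Endothelin transcripts were scarce. Edn3, the ligand of Ednrb in melanocyte development, had 0, 104 and 42 counts (0, 2.43 and 1.00 TPM) in replicates 1, 2 and 3 and did not pass limma's test (adjusted p = 0.918). Edn1 and Edn2 had no count in any library. Ece1, the enzyme that cuts endothelins to their active form, stood at 5.97 ± 0.774 TPM and passed, while its relative Ece2 averaged 0.557 TPM and did not. Ednrb and Edn3 were both lowest in replicate 1 and highest in replicate 2. Of the 10 pigment genes, 3 were lowest and highest in these libraries, and over the whole list 3 were highest in replicate 1, 4 in replicate 2 and 3 in replicate 3. Endothelial cells also carry Ednrb. Of 9 endothelial markers, 2 passed, and they summed to 21.3, 33.7 and 39.2 TPM in replicates 1, 2 and 3, with the defining marker Pecam1 at 0.105, 0.214 and 0.236 TPM and Cdh5 at 0, 1.60 and 8.46 TPM. Their part in the Ednrb level was not tested.

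Erbb3 (ENSMUSG00000018166, chromosome 10, 128403392 to 128425521), a neuregulin receptor of crest cells and Schwann cells that signals together with a partner, was close to Ednrb in mean but not in pattern. It had 720, 186 and 243 counts and stood at 16.1, 4.58 and 6.10 TPM in replicates 1, 2 and 3. Replicate 1 was 3.52 times replicate 2, whereas Ednrb was lowest in replicate 1 and highest in replicate 2. The mean of 8.93 ± 6.27 TPM passed limma's test (adjusted p = 0.00601), and the call ended without replicate 1 (0.0636), without replicate 2 (0.051) and without replicate 3 (0.0769, all adjusted p from limma), settings in which 24.9%, 28.1% and 30.4% of all genes passed. Erbb2, the partner that supplies the kinase activity, stood at 2.35, 0.877 and 5.75 TPM and did not pass (adjusted p = 0.201). Erbb3 exceeded Erbb2 in 3 of 3 libraries, by 6.85, 5.22 and 1.06 times, but with transcript lengths the ratio in replicate 3 was 0.788. The other 2 receptors of the family, Egfr and Erbb4, averaged 2.76 and 1.10 TPM and did not pass. Of the neuregulins, Nrg1 stood at 0.121, 0.324 and 0.326 TPM and Nrg2 averaged 0.505 TPM. The length behind the Nrg1 values was 7.01 times its longest coding transcript, against 1.00 for Erbb3, which lowers Nrg1 more on this scale.

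Glial markers varied across the same libraries. The 13 markers of Schwann cells and glia other than S100b summed to 367.4, 185.6 and 289.7 TPM in replicates 1, 2 and 3. Without Pmp22, left out after its values were seen, the remaining 12 summed to 205.6, 161.2 and 209.4 TPM, highest in replicate 3, as was the sum of all 14 (8600, 6891 and 9745 TPM). Erbb3 was highest in replicate 1. The myelin genes Pmp22 (162, 24.4 and 80.3 TPM) and Mbp (12.9, 4.10 and 8.77 TPM) were highest in replicate 1 and lowest in replicate 2. Ngfr, a receptor of immature Schwann cells, had counts in replicate 3 alone. S100b, at 8131 ± 1378 TPM, is a glial marker that melanocytes also carry. The part of glia in the Sox10 and Erbb3 levels was not tested.

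Kit (ENSMUSG00000005672, chromosome 5, 75735576 to 75817382), the receptor tyrosine kinase for stem cell factor, on which melanocyte survival and mast cells depend, varied least. It had 244, 189 and 296 counts and stood at 2.54, 2.16 and 3.45 TPM in replicates 1, 2 and 3. Its highest library was 1.60 times its lowest, and the Poisson intervals of replicates 1 and 2 overlapped. At a mean of 2.71 ± 0.665 TPM, Kit did not pass limma's test (unadjusted p = 0.0407, adjusted p = 0.0995) and stood above 39.2% of the protein-coding genes tested. It passed in 6 of 13 alternatives, among them edgeR's quasi-likelihood test of the counts (adjusted p = 0.00506), a pseudocount of 0.1 (limma, adjusted p = 0.0458), no mean-variance trend (0.0139) and genes counted in all 3 libraries alone (0.0288). Of all genes tested, 45.5%, 40.7%, 41.2% and 64.7% passed in these settings. Kitl, the gene of its ligand, was at 4.05, 6.43 and 1.87 TPM in these libraries and passed (limma, adjusted p = 0.048), though not with transcript lengths. Kit exceeded Kitl in replicate 3 alone (in replicates 1 and 3 with transcript lengths), the library where Kit was highest and Kitl lowest.

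Mast cells are the other common carrier of Kit. Of 9 mast cell markers, 1 passed, the transcription factor Gata2, which other cells use too. The markers summed to 8.14, 13.96 and 18.8 TPM in replicates 1, 2 and 3, most of it Gata2 (6.67, 9.71 and 14.7 TPM). Among the defining markers, the immunoglobulin E receptor chain Fcer1a and the tryptase Tpsab1 had no count in any library, and the carboxypeptidase Cpa3 had 1, 20 and 0 counts. The chymase Cma1 had 0, 25 and 26 counts, the tryptase Tpsb2 0, 0 and 57, the receptor chain Ms4a2 46, 0 and 2, Mcpt4 0, 0 and 5 and Hdc 0, 1 and 0. Their part in the Kit level was not tested. Of the relatives of Kit in the same receptor class, Flt3 averaged 1.56 TPM and did not pass, and the others on the list passed: Pdgfra stood at 24.9, 22.2 and 3.64 TPM, Pdgfrb at 8.59 ± 3.63 TPM and the macrophage receptor Csf1r at 5.32, 16.3 and 17.0 TPM in replicates 1, 2 and 3.

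**Figure D2:**
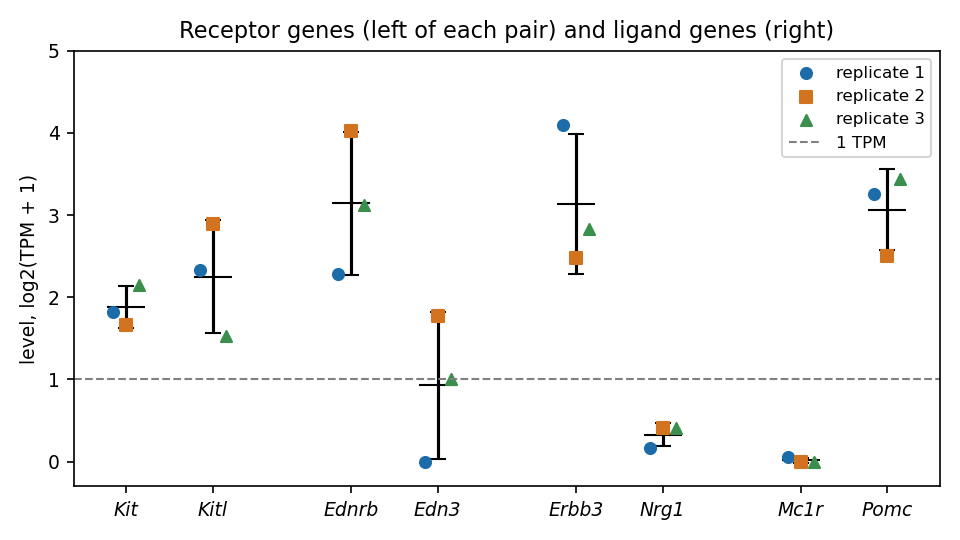
Levels of 4 receptor genes and of 1 ligand gene for each, on a log2(TPM + 1) axis, in replicates 1, 2 and 3 (circles, squares and triangles), with mean and ± 1 SD over the libraries and a dashed line at 1 TPM. With the lengths behind the deposited values, the receptor gene stands above the ligand gene for Ednrb and Erbb3, and the pair of Kit and Kitl overlaps. For Mc1r the receptor is near 0 while the precursor of its ligand is above 1 TPM in every library.

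Mc1r (ENSMUSG00000074037, chromosome 8, 124133846 to 124137483), the melanocortin receptor that turns melanocytes to dark pigment, had 1, 0 and 0 counts in replicates 1, 2 and 3. A floor of 3 counts allows it up to 0.111, 0.122 and 0.125 TPM in these libraries, so a level under that was not detectable at this depth. Sox10, by comparison, had 3268 counts over the 3 libraries. Mc1r has a single exon, and its length behind the deposited values, 3639 bp, was that of the annotated transcript, 3638 bp. The next gene, Tubb3, a tubulin of neurons that begins 680 bases beyond the end of Mc1r, had 291, 19 and 1041 counts in replicates 1, 2 and 3. In human, transcripts that read through from MC1R into TUBB3 are known, and here the counts lay in Tubb3 and not in Mc1r. The 7 neuron markers on a fixed list, Tubb3 among them, summed to 71.2, 65.5 and 306.1 TPM in replicates 1, 2 and 3. What gave the Tubb3 counts was not tested. Gm38092, which overlaps Mc1r, had none.

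Several listed genes of the melanocortin pathway other than its receptors passed limma's test, which 50.5% of the protein-coding genes tested also did. Pomc, the precursor of the melanocortin hormones, was at 8.54, 4.66 and 9.81 TPM in replicates 1, 2 and 3, above 1 TPM by limma's test (adjusted p = 0.00297). The melanocortin receptor accessory genes Mrap and Mrap2 passed at 11.3 ± 4.80 and 11.7 ± 8.02 TPM, the agouti pathway genes Atrn and Mgrn1 at 4.39 ± 1.25 and 4.48 ± 1.86 TPM, and the G-protein subunit gene Gnas at 83.1 ± 13.7 TPM. The other 4 melanocortin receptor genes held 2 counts in all: Mc2r, Mc3r and Mc4r had none, and Mc5r had 2 in replicate 3. The row described as nonagouti, the mouse gene of the agouti protein that blocks Mc1r, had 0, 2 and 0 counts. The subunits Gnaq and Gna11, through which endothelin receptors signal, passed at 12.7 ± 3.08 and 23.9 ± 7.28 TPM.

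Trpm1 (ENSMUSG00000030523, chromosome 7, 63803583 to 63919523), a cation channel known from pigment cells and from the bipolar cells of the retina, had 226, 410 and 273 counts. It stood at 1.36, 2.71 and 1.84 TPM in replicates 1, 2 and 3, highest and lowest in the same libraries as Ednrb. The mean of 1.97 ± 0.685 TPM did not pass limma's test (adjusted p = 0.253). Retinal partners of the channel, Nyx and Lrit3, had no count in any library. Of its 7 relatives on the list, Trpm3 (5.91 ± 2.48 TPM) and Trpm7 (4.70 ± 1.91 TPM) passed, Trpm4 and Trpm6 averaged 2.73 and 1.27 TPM, and Trpm8 had no count.

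Trpm1 also carries the microRNA gene Mir211 within its span. The Mir211 row had no count, and mature microRNAs lack the poly(A) tail that the kit copies, so the row says nothing of the mature product. Its 5′ arm is given to show what this host gene encodes beside the channel, with the seed, bases 2 to 8, in capitals (RefSeq, GRCm38.p6, chr7:64205831-64205852, plus strand).
mmu-miR-211-5p: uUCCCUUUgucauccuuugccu

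The promoters of Trpm1 and Mc1r are shown because Mitf acts on pigment cell promoters and their windows hold letters it can bind. Trpm1 was counted in every library, as were Kit and Ednrb, and Mc1r in 1. Promoter entries were found for 4 of the 7 regulators in the RefSeq table (GRCm38.p6), namely Kit, Ednrb, Mc1r and Trpm1, the last with separate starts. Each window was cut to the 250 bases before a start and searched for CATGTG, the core of the M-box that Mitf binds, and for CACGTG, the palindromic E-box that Mitf and other basic helix-loop-helix factors bind, on both strands. No matches overlapped in these windows. Of the 32851 windows of all genes, 12.3% held the first motif and 6.02% the second. Matches are in capitals below, from 5′ to 3′ on the plus strand, at chr7:64153585-64153834 and chr7:64185209-64185458 for Trpm1 and at chr8:123406832-123407081 for Mc1r.
Trpm1, first start: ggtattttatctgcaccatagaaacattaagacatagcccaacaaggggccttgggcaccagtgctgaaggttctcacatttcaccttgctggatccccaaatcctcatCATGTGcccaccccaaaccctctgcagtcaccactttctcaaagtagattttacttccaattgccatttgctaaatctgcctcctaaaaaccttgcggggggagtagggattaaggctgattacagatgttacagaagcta
Trpm1, further start: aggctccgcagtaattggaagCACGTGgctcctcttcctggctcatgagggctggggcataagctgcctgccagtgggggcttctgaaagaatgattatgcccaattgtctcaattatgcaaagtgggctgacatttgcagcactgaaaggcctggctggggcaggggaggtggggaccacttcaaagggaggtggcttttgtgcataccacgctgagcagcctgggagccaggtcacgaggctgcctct
Mc1r: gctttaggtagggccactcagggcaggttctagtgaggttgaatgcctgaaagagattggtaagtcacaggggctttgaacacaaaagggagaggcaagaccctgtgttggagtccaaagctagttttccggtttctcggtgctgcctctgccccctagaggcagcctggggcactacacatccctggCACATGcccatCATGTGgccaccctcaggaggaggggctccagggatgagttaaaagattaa

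The Mc1r window held CATGTG on each strand, with first bases 62 and 51 bases before the start, and the first Trpm1 window held 1, whose first base lay 141 bases before. The further Trpm1 window held CACGTG at 229 bases before its start. The windows of Kit and Ednrb held neither. A match describes the letters in these windows and shows no binding.

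The lengths behind the deposited values set how the regulators compare with each other, and they were long for most of them. Dividing count by FPKM gives the length used, which exceeded the longest annotated protein-coding transcript (GENCODE M21) 2.26 times for Sox10 (6294 against 2780 bp), 2.23 times for Pax3, 2.47 times for Kit, 2.27 times for Ednrb and 3.92 times for Trpm1 (22365 against 5711 bp). For Erbb3 and Mc1r, each with 1 annotated transcript, the ratio was 1.00. Trpm1 has 23 annotated transcripts, 6 of them with retained introns, and Kit has 8, also 6 with retained introns. Pax3 and Ednrb have 3 each, with 0 retained introns. The length used also exceeded all annotated exons of the gene combined, which came to 3051 bp for Sox10, 4266 bp for Ednrb and 14746 bp for Trpm1. What made these lengths long was not tested. Across 16093 protein-coding genes tested the median ratio was 1.89. A long length lowers TPM, and it does so more for Trpm1 than for Erbb3.

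With the longest coding transcript in place of the deposited length, an alternative chosen after seeing the data, 5 of the 7 regulators passed limma's test, beside 38.7% of all genes tested and 53.8% of the protein-coding ones. The additional calls were Kit, at 3.75, 3.32 and 5.23 TPM in replicates 1, 2 and 3 (adjusted p = 0.0266), and Trpm1, at 3.19, 6.61 and 4.42 TPM (adjusted p = 0.0188). Erbb3 came out lower on this scale, at 9.65, 2.85 and 3.74 TPM (adjusted p = 0.0265), and Sox10 and Ednrb higher, at 34.5 ± 9.53 and 12.5 ± 8.26 TPM. Pax3 at 1.56 ± 1.37 TPM did not pass (adjusted p = 0.609), and Mc1r remained at its 1 count. The same 5 passed in CPM without gene length, where 43.4% of all genes did, and in edgeR's quasi-likelihood test of the counts, where 45.5% did. The CPM setting tested against 1 CPM in place of 1 TPM, a lower bar for long genes: Trpm1 averaged 19.6 CPM but 1.97 TPM.

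**Figure D3:**
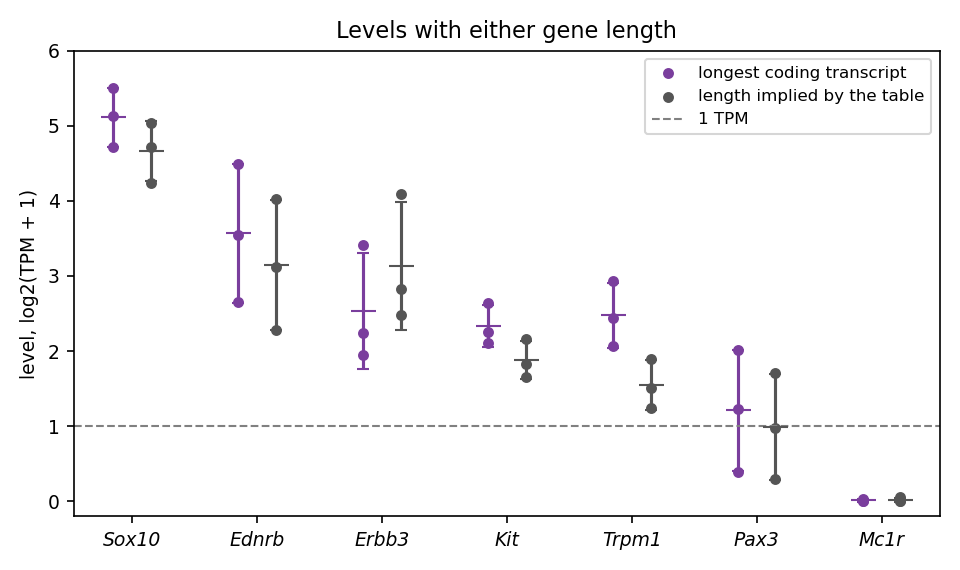
Level of each regulator on a log2(TPM + 1) axis with the longest coding transcript as gene length (left of each pair) and with the length implied by the deposited values (right). Points are the 3 libraries, bars the mean ± 1 SD, and the dashed line is 1 TPM. Trpm1 averages 4.74 TPM with the transcript length and 1.97 TPM with the implied length, while Erbb3 moves the other way, to 5.41 TPM against 8.93 TPM.

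In order of mean level on the log2(TPM + 1) scale the regulators ran Sox10, Ednrb, Erbb3, Kit, Trpm1, Pax3, Mc1r. Between neighbours, the higher gene was higher in 3 of 3 libraries for Sox10 over Ednrb (difference 1.52 ± 1.15), Erbb3 over Kit (1.26 ± 0.89) and Pax3 over Mc1r (0.97 ± 0.68). Each had an exact sign-flip permutation p of 0.25, two-sided, the smallest that 3 libraries allow, and an adjusted p of 0.5 over the 6 pairs. The other pairs did not differ beyond their spread: Ednrb and Erbb3 by 0.01 ± 1.69, Kit and Trpm1 by 0.33 ± 0.49, and Trpm1 and Pax3 by 0.56 ± 0.90, each with the order turned round in 1 library. The difference of Erbb3 and Kit fell to 0.20 with transcript lengths and 0.40 in CPM, with Erbb3 below Kit in replicates 2 and 3 in TPM by transcript length (2.85 against 3.32 and 3.74 against 5.23) and in CPM (12.3 against 12.5 and 17.2 against 21). In CPM Sox10 also stood below Ednrb in replicate 2 (50.4 against 63.6). With transcript lengths or in CPM, Trpm1 came before Kit, by a difference of -0.15 or -0.28 for Kit minus Trpm1.

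The regulators did not vary together across the libraries. Pax3 and Erbb3 were highest in replicate 1, Ednrb and Trpm1 in replicate 2, and Sox10 and Kit in replicate 3. The coefficient of variation of TPM was 24.5% for Kit, 28.02% for Sox10 and 34.7% for Trpm1, and 64.6% for Ednrb, 70.2% for Erbb3 and 89.6% for Pax3. Its median over the 14885 genes with a mean between 1 and 50 TPM was 50.9%, so 3 regulators varied less and 3 varied more than the typical gene of such a level. All 3 pairs of libraries had Poisson intervals that did not overlap for Sox10, Pax3, Ednrb, Erbb3 and Trpm1, so counting error alone is smaller than these differences. The same held for the table as a whole. Over 17921 to 18178 genes, chi-square per degree of freedom, near 1 under counting error alone, was 102.6 between replicates 1 and 2. It was 142.8 between replicates 1 and 3 and 159.9 between replicates 2 and 3. The share of all genes without overlap was not computed, so the intervals do not set these regulators apart.

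**Figure D4:**
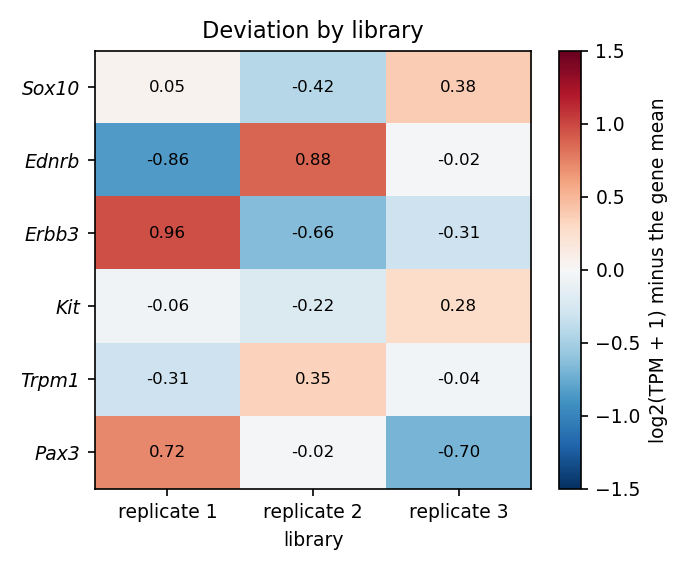
Deviation of each of the 6 regulators counted in every library from its own mean over the libraries, on the log2(TPM + 1) scale, with libraries in columns and genes in rows (red above the gene's mean, blue below). The extremes fall in different libraries for different genes: Erbb3 is highest and Ednrb lowest in replicate 1, and Pax3 is lowest in replicate 3.

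Among 132 genes of the fixed lists, the one nearest to Sox10 in its values over the 3 libraries was Twist1 (25.2, 17.1 and 38.1 TPM in replicates 1, 2 and 3), at a Euclidean distance of 0.25 on the log2(TPM + 1) scale, followed by Cd14 at 0.38. Nearest to Ednrb were the endothelial marker Kdr (distance 0.80) and the pigment gene Tyrp1 (1.05), and nearest to Erbb3 were Mbp (0.56) and Trpm3 (0.87). With 3 libraries such nearness is common: 26 of all genes tested lay as near to Sox10 as Twist1 did, 87 as near to Ednrb as Kdr and 101 as near to Erbb3 as Mbp.

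Read beside the other lists, the regulators were called at a rate between those of pigment genes and crest factors. That rate lay near the share over all genes tested, 37.6%, and over the protein-coding ones, 50.5%, so it does not set the regulators apart. The pigment genes had 7 of 10 members above 1 TPM and a median level of 3.73, the 7 regulators 3 and a median of 1.88, and the crest and pigment factors 4 of 18 and a median of 1.14, all on the log2(TPM + 1) scale. Ligands of the receptors had 2 of 7 above, receptor partners and agouti pathway genes 8 of 12, and family relatives of the regulators 7 of 22. Without replicates 1, 2 or 3 in turn, the ligands had 0, 1 and 1 above, the partners 4, 5 and 5, and the relatives 3, 4 and 4. Of all genes tested, 24.9%, 28.1% and 30.4% passed in these settings. Differences between lists were not tested, since the genes of a list are not replicates.

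**Figure D5:**
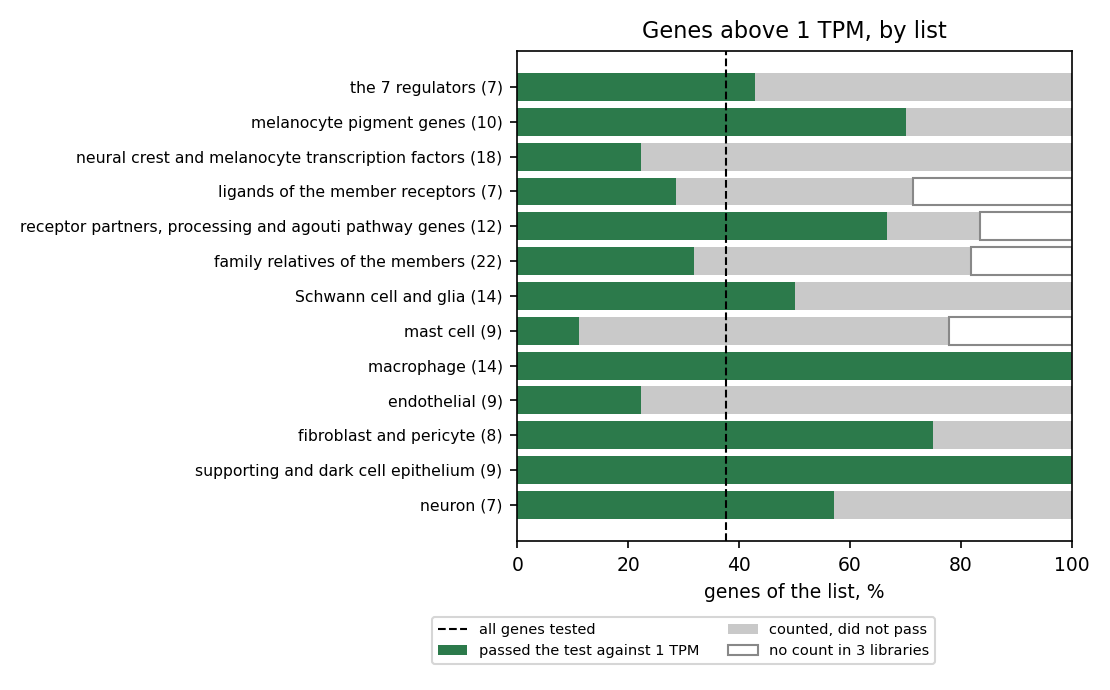
Share of each list's genes, in percent, that passed limma's test against 1 TPM (green), were counted without passing (grey) or had no count in the 3 libraries (white), with the number of genes in brackets. The dashed line is the share over all genes tested, 37.6%. The regulators, in the top row, lie near that line, below the pigment genes and above the crest and melanocyte transcription factors.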

How the data were processed

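The authors deposited 1 table holding raw counts and FPKM of each gene in 3 libraries, per the file headers. HISAT2, StringTie, edgeR and GRCm39 appear in the submitters' processing notes, without versions or roles. Neither strand use nor the handling of multi-mapping reads is stated there. The deposited FPKM equalled the count per fixed gene length and library total, with that length differing between libraries by at most 0.0528%. FPKM was rescaled to TPM, and log2(TPM + 1), with a pseudocount of 1 that compresses low values, was tested with limma 3.58.1 (1 mean per gene, trend on), over 27265 genes counted in any library, at an adjusted p of 0.05. Alternatives used pseudocounts of 0.1 and 5, CPM tested against 1 CPM, other filters, no trend, TMM factors, DESeq2 1.42.0 size factors, edgeR 4.0.16, and each library left out. The edgeR test compared the quasi-likelihood deviance at a fixed mean of 1 TPM with that of the fitted mean. Transcript lengths came from GENCODE M21 (GRCm38), which held 95.26% of the genes tested. Its coordinates were not used with those of the table.

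The regulators, gene lists and tests were chosen with earlier results of these data known. The rule for named genes took all 7 regulators, the 4 most abundant genes of each other list, every transcription factor, ligand or partner averaging 1 TPM or more or at 0 in every library, genes overlapping a regulator, and the 2 list genes nearest to each regulator that passed. Of these, the text gives values where a regulator's result turns on them. Genes outside the rule were chosen after their values were seen: Foxd3, Tfap2a, Tfap2b, Pax7, Nrg1, Nrg2, Ece2, Polr2f, Gm10863, the remaining family relatives and the defining markers of other cell types. Asip has no row under that symbol, so 7 of 8 ligands were used. The fitting steps were tested on simulated data. No libraries held identical counts.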

Additional observations from a re-analysis of the deposited data

How the results depend on the processing

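Sox10 passed and Pax3 and Mc1r did not under every alternative that gave them a value, while the calls of Ednrb, Erbb3, Kit and Trpm1 depended on the setting. Against 3 regulators above 1 TPM, 5 passed with edgeR's quasi-likelihood test and with coding transcript lengths. In CPM without gene length 5 also passed, but against 1 CPM, a different level. When genes with no count were kept, 1 passed, beside 12.1% of all 57180 genes (limma, adjusted p = 0.121 for Ednrb and 0.119 for Erbb3), and between 1 and 2 when a library was left out. Of the 132 list genes, 67 passed in the main analysis, 42 when genes with no count were kept, and 49 to 55 with a library left out. The number of neighbour pairs with the same order in every library, 3 in the main analysis, was 2 in CPM and ranged from 3 to 5 with a library left out, where fewer libraries have to share the order. Ednrb minus Erbb3, at 0.01, ranged from -0.76 to 0.92 on the log2 scale with a library left out, and was -0.14 without replicate 3. Kit minus Trpm1, at 0.33, was -0.28 in CPM and -0.15 with coding transcript lengths. The CPM setting leaves out gene length and also adds its pseudocount of 1 on the CPM scale. What caused the differences between settings was not tested. No paired analysis was possible because the labels give 1 group. Depth limits what can be said of Mc1r, and the 3 libraries limit every p-value.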
